A study of Mus musculus with 20 samples.

Results

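Solute carriers are membrane proteins that move ions, sugars, amino acids, metals, vitamins and metabolites across the surface membrane, the mitochondrial inner membrane and the membranes of other organelles. The genes described here are those whose symbol has the form Slc, a family number, a and a member number, and whose brightest probe set had a mean signal above 100 in at least 1 of the 4 groups of arrays. Of 142 such genes among the 8251 genes with a single symbol on the array, 69 met this rule. It rests on the measured group means, so being expressed is not a finding: 49 of the 69 were above 100 in all 4 groups and 20 in 1 to 3 of them. Slc25a44, Slc39a9 and Slc22a12 lay just inside with highest group means of 103.08, 105.62 and 107.44, and Slc39a3, Slc22a5 and Slc6a20b just outside with 99.96, 97.38 and 94.06. The pattern also caught 3 genes named after a carrier that are not carriers themselves (Slc9a3r1, Slc9a3r2 and Slc4a1ap), which leaves 66 carriers.

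The study hybridised RNA of female mice aged 32 to 34 weeks to Affymetrix MG_U74Av2 arrays, 5 arrays for each of 4 groups. C57BL/6 mice, with normal dysferlin, gave right quadriceps muscle and left ventricle of the heart, and SJL/J mice gave quadriceps and left ventricle. SJL/J carries a natural in-frame deletion of 171 base pairs in the dysferlin gene that removes 57 residues of this membrane repair protein, and the strain develops a muscle disease. The labels name no congenic control, so the dysferlin deletion and the rest of the strain background cannot be told apart. No further treatment or allele is named in the labels. For the SJL/J quadriceps samples the title, source and keywords say quadriceps while the free text names left ventricle as the origin of the RNA. The labels speak of 5 mice per group and biological replicates.

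In resting and working muscle, carriers move chloride, potassium, sodium and calcium across the fibre membrane, admit glucose, lactate, fatty acids, creatine and taurine, and pass adenine nucleotides, acylcarnitines and citrate between cytosol and mitochondria. Heart muscle relies on sodium and calcium exchange to remove calcium after each beat and burns mostly fatty acids and lactate, while fast skeletal muscle stores glycogen and depends on glucose taken up under the control of insulin and contraction. A signal from whole tissue is an average over its cells, so fewer cells of a type and less RNA per cell cannot be told apart.

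Several arrays carried transcripts of the other tissue, and the main results are therefore given with and without them. On SJL/J quadriceps arrays 1 and 5 the heart troponin Tnni3 read 13593 and 14913, inside or near the 13442 to 15617 of SJL/J left ventricle, and the fast muscle troponin Tnnt3 only 2178 and 4925 against 17082 to 19009.9 on the other 3 arrays. SJL/J left ventricle array 1 and C57BL/6 left ventricle array 5 carried skeletal transcripts, with Tnnt3 at 466.6 and 845.8. These 4 arrays, called mixed arrays here, form 1 fluidics run (run 3). Runs were inferred from gaps between the recorded hybridisation times. Smaller amounts of Tnni3 were present on SJL/J quadriceps array 3 (4243) and on C57BL/6 quadriceps arrays 2 and 4 (2049 and 1202), against 78.0 to 279.6 on the other C57BL/6 quadriceps arrays. Summed heart markers spanned 7170 to 29964 in C57BL/6 quadriceps and 12312 to 78050 in SJL/J quadriceps, and Ryr2 was under the floor of 3.1 on SJL/J quadriceps array 2. C57BL/6 quadriceps array 4 also stood apart from its group, with a median rank correlation of 0.896 with the other 4.

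RNA quality and processing order also differed between the groups. The Gapdh 5' to 3' signal ratio, which falls as RNA is degraded or copied incompletely, was 0.697 to 0.866 in C57BL/6 and 0.101 to 0.47 in SJL/J left ventricle, so these groups did not overlap. In quadriceps it was 0.487 to 1.061 and 0.267 to 0.663. Run 3 holds 1 array of each strain in left ventricle, and the other left ventricle runs hold 1 strain each. In quadriceps, run 5 holds C57BL/6 array 4 and SJL/J arrays 2 to 4, and C57BL/6 arrays 1, 2, 3 and 5 come from a run and a chip lot of their own. With the run fitted as a block, a strain difference is therefore that within run 3 in left ventricle and within run 5 in quadriceps. A comparison of the strain differences between tissues then combines both, and the SJL/J tissue difference is that within run 3. With the chip lot as a block, C57BL/6 array 4 alone stands for its group in quadriceps. Each such fit rests on 1 array in at least 1 group, so it cannot show whether a call depends on run or lot. All values are arbitrary signal units scaled by the authors to a common target, log2 differences come from limma on 5473 genes, and a gene was called when its Benjamini-Hochberg adjusted p was under 0.05.

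**Figure D1:**
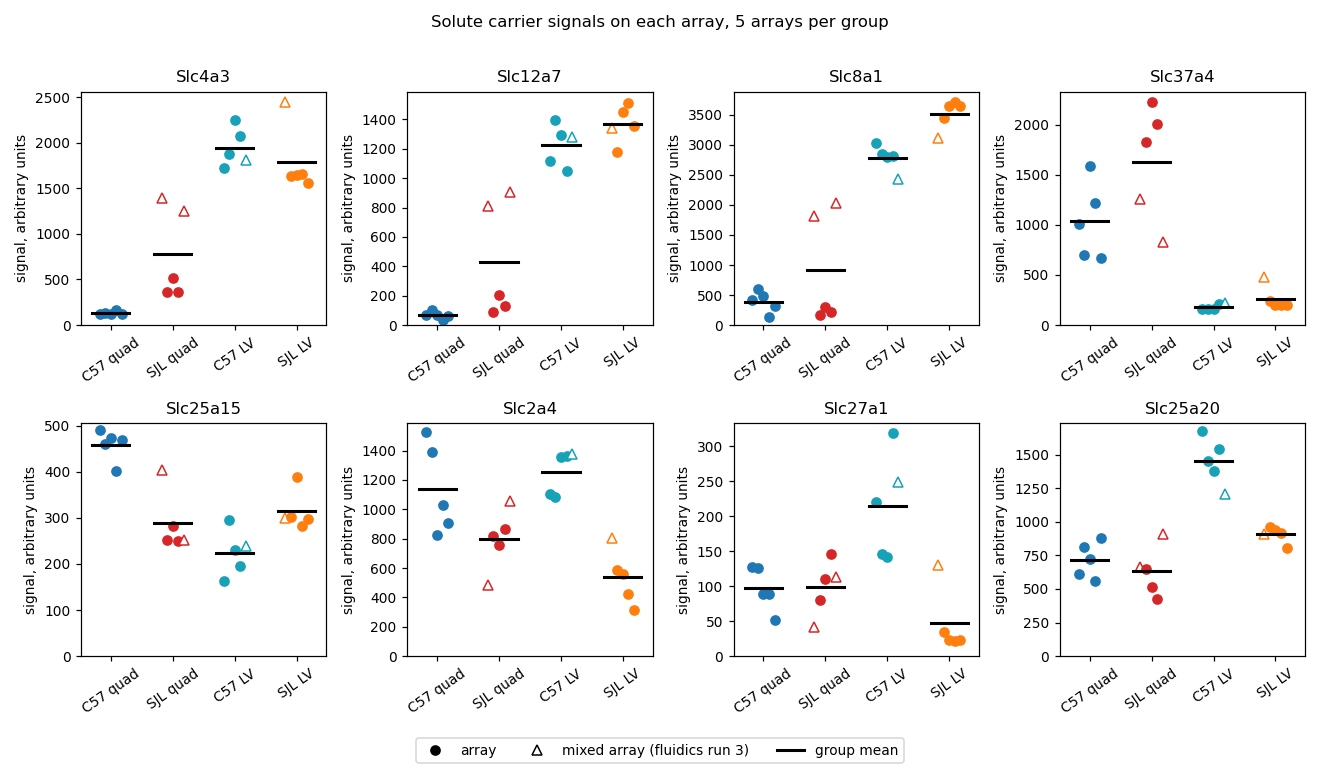
Signal (arbitrary units, linear axis from 0) of 8 solute carriers on each of the 20 arrays, with quad for quadriceps and LV for left ventricle, circles for arrays, open triangles for the 4 mixed arrays and bars for group means. Slc4a3 sits at 358.5 to 513.9 on the 3 unmixed SJL/J quadriceps arrays, above all 5 C57BL/6 quadriceps arrays, whereas Slc8a1 does so on the mixed arrays alone.

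In quadriceps, 5 of the 69 members were called, 4 higher and 1 lower in SJL/J, where 11.6% of all genes tested were called. Slc22a17, 1 of the 5, is a member through its quadriceps signal alone, so its call is not independent of the rule. Without the mixed arrays 5 members were called again, against 9.67% of all genes, and 2 genes were in both sets (Slc4a3 and Slc25a15). The median member differed by 0.16 on the log2 scale and the median gene by 0.09. Left ventricle had 22 calls, 9 higher and 13 lower in SJL/J, against 33.4% of all genes, and 25 without the mixed arrays against 35.3%. Of these 22, 3 genes (Slc27a1, Slc5a6 and Slc25a47) are members through left ventricle signal alone; 19 of the other 63 were called. In left ventricle 0 members were called by limma with the Gapdh ratio as a covariate. In the limma fit without it, 26 of the 69 members and 2397 of all 5473 genes had an unadjusted p under 0.05. With the fluidics run as a block, the left ventricle difference is that within run 3 alone, on 1 mixed array of each strain. The test of whether the strain difference differed between the tissues called 10 members, 8 with a higher difference in quadriceps, against 16% of all genes, and 12 without the mixed arrays against 20.2%; 6 were in both sets. All 4 groups enter that test, and Slc27a1, 1 of the 10 and of the 6, is a member through C57BL/6 left ventricle alone, so its call is not independent of the rule; of the 49 members above 100 in all groups 7 were called, 4 of them in both fits. Between C57BL/6 left ventricle and quadriceps, 32 members were called, 21 higher and 11 lower in left ventricle, against 49.7% of all genes (28 and 44.8% without mixed arrays). Between the SJL/J tissues 26 were called against 37.2%, and 42 without the mixed arrays against 53.7%. In each comparison the share of members called was close to or below the share of all genes or, for the SJL/J tissues without mixed arrays, somewhat above it (60.9%), so what follows describes single carriers and not the family.

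**Figure D2:**
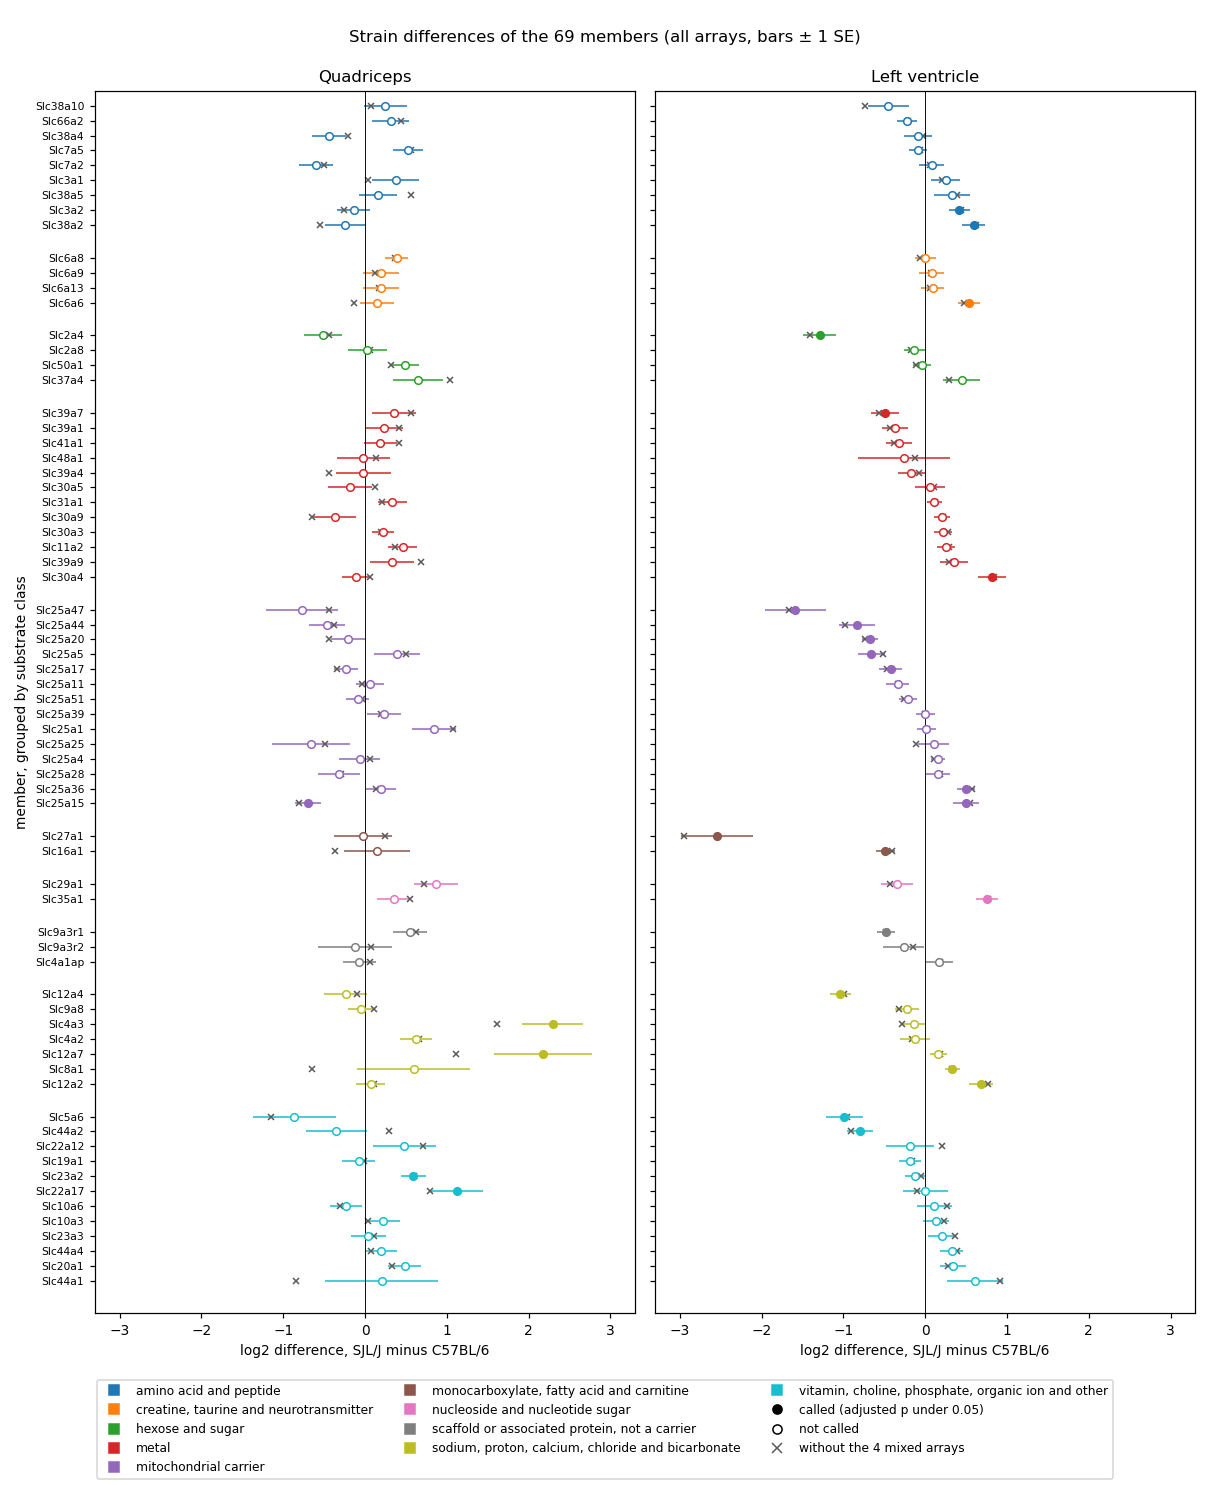
Log2 difference between SJL/J and C57BL/6 for the 69 members in quadriceps and left ventricle, grouped and coloured by substrate class, with bars of 1 SE, filled circles for called members and crosses for the fit without the 4 mixed arrays. In quadriceps 5 circles are filled and the largest are Slc4a3 and Slc12a7; in left ventricle 22 are filled, 3 of them (Slc27a1, Slc5a6 and Slc25a47) for members that met the rule in that tissue alone.

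The windows before the start sites of 4 carriers with the largest tissue differences are shown, 3 high in left ventricle (Slc4a3, Slc12a7 and Slc8a1) and 1 high in quadriceps (Slc37a4), since their levels split the tissues in both strains. Each is the 250 bases before the first start listed by RefSeq on GRCm38.p6, 5′ to 3′ on the gene's strand: Slc4a3 chr1:75546212-75546461 (plus), Slc12a7 chr13:73763410-73763659 (plus, 1 of 2 listed starts), Slc8a1 chr17:81738388-81738637 (minus) and Slc37a4 chr9:44396696-44396945 (plus, 1 of 3). Capitals mark matches on either strand to GGGCGG, the core of a GC box, or to AGATAA, a motif of zinc-finger factors of the heart.
Slc4a3: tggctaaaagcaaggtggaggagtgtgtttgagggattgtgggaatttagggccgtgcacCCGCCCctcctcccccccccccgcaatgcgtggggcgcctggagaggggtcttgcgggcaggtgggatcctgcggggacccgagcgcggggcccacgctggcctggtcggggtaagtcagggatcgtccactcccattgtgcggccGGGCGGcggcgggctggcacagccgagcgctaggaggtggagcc
Slc12a7: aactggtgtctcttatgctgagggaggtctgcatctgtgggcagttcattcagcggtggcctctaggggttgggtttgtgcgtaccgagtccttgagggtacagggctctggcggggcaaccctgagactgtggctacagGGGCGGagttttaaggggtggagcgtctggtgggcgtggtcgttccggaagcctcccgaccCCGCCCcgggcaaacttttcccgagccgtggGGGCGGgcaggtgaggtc
Slc8a1: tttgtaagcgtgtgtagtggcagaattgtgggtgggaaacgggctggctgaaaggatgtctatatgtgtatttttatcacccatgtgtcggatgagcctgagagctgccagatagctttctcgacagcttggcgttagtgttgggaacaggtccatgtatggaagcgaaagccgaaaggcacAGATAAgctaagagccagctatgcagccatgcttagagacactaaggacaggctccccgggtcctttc
Slc37a4: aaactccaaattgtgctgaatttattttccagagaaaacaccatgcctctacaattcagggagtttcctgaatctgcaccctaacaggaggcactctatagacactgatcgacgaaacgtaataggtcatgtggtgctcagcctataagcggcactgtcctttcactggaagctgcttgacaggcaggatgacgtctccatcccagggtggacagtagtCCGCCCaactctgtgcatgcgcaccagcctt
GGGCGG occurred 3 times before Slc12a7, 2 times before Slc4a3 and 1 time before Slc37a4, and 32.7% of all 32851 windows in the table held it. AGATAA occurred 1 time before Slc8a1, against 9.99% of all windows. TATAAA (12.4% of windows), CAGCTG (13%) and CATTCC (12.6%) occurred in none of the 4. GC content was 63.6% before Slc12a7, 70% before Slc4a3, 50.4% before Slc8a1 and 49.6% before Slc37a4, with a median of 52.4% over all windows. A match is a description of letters and not a binding site. Of the 69 members, 56 had a window in the table.

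Among the 7 ion carriers, the chloride and bicarbonate exchanger Slc4a3, which exports bicarbonate from heart muscle cells, was the carrier with the lowest adjusted p among the members in quadriceps. Its signal was 120.4, 135.5, 120.5, 167.1 and 124.7 on C57BL/6 quadriceps arrays 1 to 5 and 1397, 358.5, 513.9, 358.8 and 1251 on SJL/J arrays 1 to 5. All 5 SJL/J arrays lay above all 5 C57BL/6 arrays, and the 2 mixed arrays were the highest. Slc4a3 was higher in SJL/J by 2.29 ± 0.37 (SE, adjusted p = 0.00318) on the log2 scale, by 1.61 ± 0.20 (adjusted p = 0.00109) without the mixed arrays, and by 1.27 within run 5. When every quadriceps array with Tnni3 above 1000 was also left out, 2 SJL/J and 3 C57BL/6 arrays remained and the difference was 1.56 ± 0.21 (adjusted p = 0.00549). On SJL/J arrays 2 and 4, with Tnni3 at 121.7 and 272.8, Slc4a3 read 358.5 and 358.8, while on C57BL/6 arrays 2 and 4, with more Tnni3, it read 135.5 and 167.1. The call ended with chip lot as a block, at 1.96 (adjusted p = 0.0708), and after adjustment for the Gapdh ratio, at 1.55 (adjusted p = 0.0615).

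Macrophage and fat cell markers moved with the same groups. In SJL/J quadriceps 5 of 9 macrophage markers rose (55.6%), against 11.6% of all genes called. Their summed level was 2191 to 3528 against 879 to 1317 in C57BL/6, without overlap. Of 8 adipocyte markers 3 rose (37.5%), with sums of 4942 to 10400 against 2525 to 6919. The part of these cells in the Slc4a3 difference was not tested. In left ventricle Slc4a3 read 1726, 1872, 2254, 2075 and 1806 in C57BL/6 and 2445, 1633, 1647, 1659 and 1561 in SJL/J. The highest SJL/J value is the mixed array 1, and the other 4 lie below all C57BL/6 arrays. The difference was -0.14 ± 0.13 (SE, adjusted p = 0.445) with all arrays and -0.28 ± 0.10 (adjusted p = 0.0491) without the mixed ones. Tested directly, the strain difference in quadriceps exceeded that in left ventricle by 2.43 ± 0.42 (SE, adjusted p = 0.000839), and by 1.89 ± 0.21 (adjusted p = 1.52e-05) without the mixed arrays; run as a block ended that call, at 0.84 (adjusted p = 0.13). In C57BL/6 it was higher in left ventricle than in quadriceps by 3.87 ± 0.13 (SE, adjusted p = 3.70e-09), and in SJL/J without the mixed arrays by 2.01 ± 0.14 (adjusted p = 3.07e-06).

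**Figure D3:**
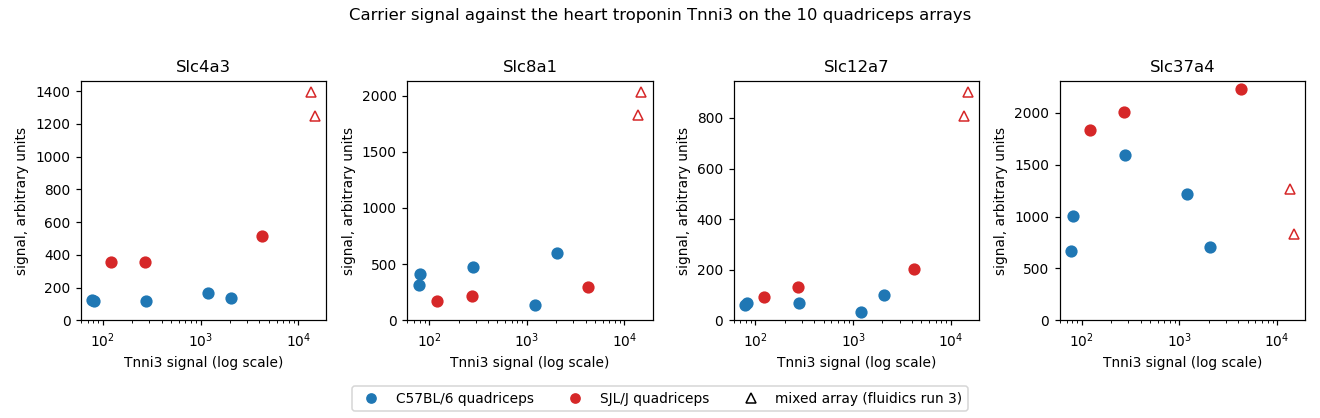
Signal of 4 carriers (arbitrary units, linear axis from 0) against the heart troponin Tnni3 (log axis) on the 10 quadriceps arrays, with open triangles for the mixed arrays. Slc4a3 is 358.5 and 358.8 on SJL/J arrays 2 and 4, where Tnni3 is low, while Slc8a1 there is 169.3 and 220.3, inside the C57BL/6 range of 139.8 to 598.6.

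Slc8a1, the sodium and calcium exchanger that removes calcium from heart muscle cells, was high in SJL/J quadriceps on the mixed arrays alone. It read 414.5, 598.6, 475.7, 139.8 and 313.4 in C57BL/6 and 1825, 169.3, 295.9, 220.3 and 2035 in SJL/J quadriceps. Only the mixed SJL/J arrays 1 and 5 were above the C57BL/6 range. The strain difference there was 0.60 ± 0.69 (SE, adjusted p = 0.609) with all arrays and -0.65 ± 0.41 (adjusted p = 0.356) without the mixed arrays, which turned its direction; without arrays above 1000 in Tnni3 it was -1.03 ± 0.24 (adjusted p = 0.0394), a call that rests on 2 SJL/J arrays. Left ventricle signals were 3040.3, 2843, 2805, 2819 and 2440.3 in C57BL/6 and 3109, 3445, 3645, 3709 and 3646 in SJL/J. Every SJL/J ventricle array was above every C57BL/6 one, by 0.33 ± 0.09 (SE, adjusted p = 0.0126), and the difference within run 3 was 0.35 on 1 array each. With the Gapdh ratio as a covariate that ventricular difference was -0.02 (adjusted p = 0.984). Slc8a1 was higher in left ventricle than in quadriceps by 3.0 ± 0.31 (SE, adjusted p = 7.41e-06) in C57BL/6 and by 4.02 ± 0.17 (adjusted p = 1.78e-07) in SJL/J without the mixed arrays.

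The potassium and chloride cotransporter Slc12a7 was higher in left ventricle than in quadriceps by 4.29 ± 0.25 (SE, adjusted p = 1.10e-07), the largest tissue difference among the members called in C57BL/6. Quadriceps signals were 70.0, 99.7, 70.3, 31.6 and 60.1 in C57BL/6 and 807.7, 90.3, 202.3, 132.6 and 902.1 in SJL/J. The mixed arrays were at 807.7 and 902.1, and SJL/J array 2 fell inside the C57BL/6 range. Its call in quadriceps, 2.18 ± 0.60 (SE, adjusted p = 0.0348), was lost without the mixed arrays, at 1.11 ± 0.39 (adjusted p = 0.1), and the difference was 0.72 ± 0.30 (adjusted p = 0.175) when arrays above 1000 in Tnni3 were left out too. In left ventricle the groups overlapped, at 1049 to 1396 and 1175 to 1514, and the difference was 0.16 ± 0.10 (SE, adjusted p = 0.267).

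A related cotransporter of potassium and chloride, Slc12a4, read 202.0, 169.9, 196.3, 216.9 and 232.4 in C57BL/6 and 102.0, 105.2, 84.5, 112.2 and 92.2 in SJL/J left ventricle. The ventricle groups did not overlap, and Slc12a4 was lower in SJL/J by -1.04 ± 0.13 (SE, adjusted p = 0.000112), by -1.0 ± 0.15 (adjusted p = 0.00059) without the mixed arrays and by -1.19 within run 3. The sodium, potassium and chloride cotransporter Slc12a2, which loads cells with chloride, moved the opposite way. It read 418.4, 538.3, 660.2, 567.8 and 786.7 in C57BL/6 and 1011, 847.8, 885.6, 911.3 and 1035 in SJL/J left ventricle, with no overlap and a difference of 0.69 ± 0.15 (SE, adjusted p = 0.00359), or 0.77 ± 0.14 (adjusted p = 0.00165) without the mixed arrays. In quadriceps, where its signal was 1404 to 2496 in C57BL/6 and 1643 to 2368 in SJL/J, the strains overlapped. Slc12a2 was lower in left ventricle than in quadriceps by -1.75 ± 0.19 (SE, adjusted p = 1.07e-05) in C57BL/6 and -1.20 ± 0.11 (adjusted p = 1.61e-05) in SJL/J without the mixed arrays. The other exchangers, Slc4a2 for chloride and bicarbonate and Slc9a8 for sodium and protons, were not called in either strain comparison; all SJL/J quadriceps arrays were above all C57BL/6 ones for Slc4a2, by 0.63 ± 0.20 (SE, adjusted p = 0.0571).

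Of the 4 sugar carriers, Slc2a4, the glucose transporter that insulin and contraction bring to the muscle surface, fell in SJL/J left ventricle. Its signal was 1102, 1082, 1356, 1361 and 1379.7 in C57BL/6 and 801.4, 590.1, 557.8, 426.4 and 313.6 in SJL/J left ventricle. No SJL/J array reached the C57BL/6 range, and the mixed array 1 was the highest of the SJL/J group. The difference was -1.29 ± 0.20 (SE, adjusted p = 0.000512), -1.41 ± 0.18 (adjusted p = 0.000245) without the mixed arrays and -0.78 within run 3, on 1 array each. Within SJL/J, Slc2a4 was lowest (313.6) on array 5, which had the lowest Gapdh ratio (0.101), and highest (801.4) on array 1, which had the highest (0.47), and with this ratio as a covariate the difference was 0.37 (adjusted p = 0.548). In this design RNA quality and strain cannot be told apart in left ventricle. Other cell types also moved there, where 33.4% of all genes were called. In SJL/J 4 of 9 macrophage markers rose and 1 fell (55.6% called), with sums of 2570 to 3949 against 1881 to 2592 in C57BL/6. Of 7 fibroblast markers 4 rose (57.1%), and of 9 endothelial markers 1 rose and 3 fell (44.4%). The part of these cells in the results was not tested. In quadriceps Slc2a4 read 1529, 1393, 822.0, 1031 and 908.0 in C57BL/6 and 482.6, 815.0, 759.3, 863.0 and 1055 in SJL/J, overlapping groups with a difference of -0.52 ± 0.23 (SE, adjusted p = 0.167). The strain differences in the tissues differed by 0.77 ± 0.33 (SE, adjusted p = 0.113), and by 0.97 ± 0.30 (adjusted p = 0.032) without the mixed arrays.

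**Figure D4:**
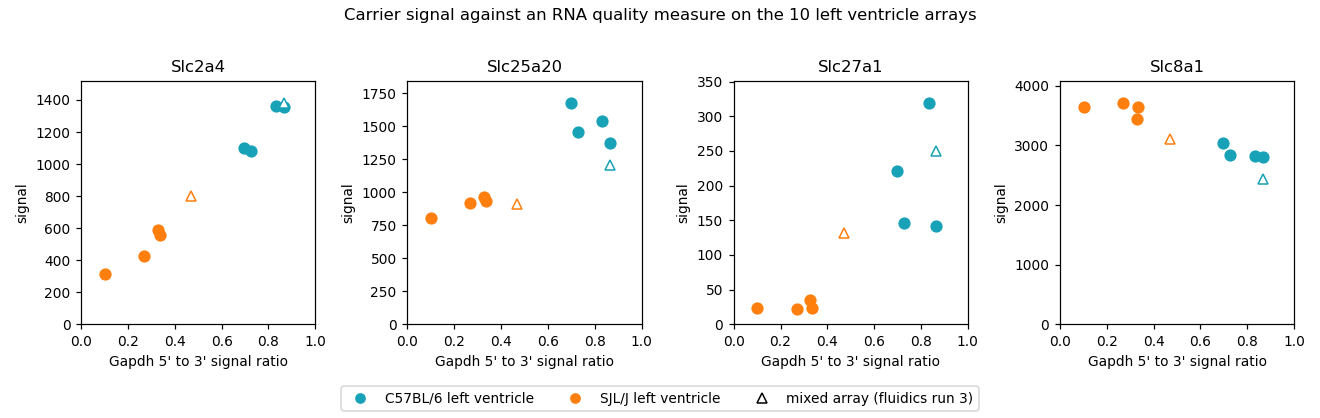
Signal of 4 carriers (arbitrary units, linear axis from 0) against the Gapdh 5' to 3' signal ratio on the 10 left ventricle arrays, with open triangles for the mixed arrays. The ratios are 0.101 to 0.47 in SJL/J and 0.697 to 0.866 in C57BL/6, and Slc2a4 runs from 313.6 to 801.4 within SJL/J alone.

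Slc37a4, which carries glucose 6-phosphate into the endoplasmic reticulum, was the member with the largest fall from quadriceps to left ventricle in C57BL/6, -2.44 ± 0.23 (SE, adjusted p = 3.69e-06), and in SJL/J without the mixed arrays it was -3.27 ± 0.11 (adjusted p = 7.55e-08). Quadriceps values were 1005, 701.9, 1589, 1214 and 666.7 in C57BL/6 and 1263, 1831, 2226, 2006 and 830.4 in SJL/J. The 3 unmixed SJL/J arrays were above all C57BL/6 arrays and the mixed ones fell among them. Its strain difference in quadriceps was 0.65 ± 0.30 (SE, adjusted p = 0.186), 1.04 ± 0.27 (adjusted p = 0.0392) without the mixed arrays and 0.73 within run 5, against a single C57BL/6 array, and 0.91 ± 0.32 (adjusted p = 0.119) without arrays above 1000 in Tnni3. SJL/J left ventricle array 1, a mixed array, read 482.1 against 200.2 to 236.8 on the other 4. Slc50a1, a sugar exporter, was higher in left ventricle by 1.01 ± 0.16 (SE, adjusted p = 0.000212) in C57BL/6 and 0.66 ± 0.12 (adjusted p = 0.00108) in SJL/J without the mixed arrays, and Slc2a8, an intracellular glucose transporter, was called in no comparison of strains.

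Both members that carry monocarboxylates or fatty acids were lower in SJL/J left ventricle. Slc27a1, a fatty acid transport protein of muscle and fat, read 220.8, 145.4, 142.0, 318.7 and 249.3 in C57BL/6 and 130.9, 35.2, 23.0, 22.2 and 22.8 in SJL/J left ventricle. The mixed array 1 read 130.9, just under the lowest C57BL/6 array, and the other 4 SJL/J arrays were at 22.2 to 35.2. Because only the C57BL/6 ventricle mean put this gene above 100, the difference of -2.54 ± 0.44 (SE), or -2.95 ± 0.28 without the mixed arrays, is given with no test; within run 3 it was -0.93. In quadriceps it read 51.1 to 127.7 in C57BL/6 and 41.3 to 145.7 in SJL/J, with a difference of -0.02 ± 0.35 (SE, adjusted p = 0.974). Slc16a1, which exchanges lactate and other monocarboxylates with protons, read 312.1, 322.1, 276.2, 335.7 and 310.8 in C57BL/6 and 178.8, 224.7, 261.5, 248.3 and 206.8 in SJL/J left ventricle. The groups did not overlap; the difference was -0.48 ± 0.12 (SE, adjusted p = 0.00854), -0.41 ± 0.12 (adjusted p = 0.0239) without the mixed arrays and -0.80 within run 3. Left ventricle exceeded quadriceps for Slc16a1 by 1.87 ± 0.29 (SE, adjusted p = 0.000181) in C57BL/6 and 1.83 ± 0.16 (adjusted p = 1.33e-05) in SJL/J without the mixed arrays.

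Bsg, the chaperone that takes Slc16a1 to the surface membrane, also fell in SJL/J left ventricle. It read 3581, 3634, 3439.7, 4280.2 and 3565 in C57BL/6 and 1761, 1657, 1578, 1576 and 1237 in SJL/J, groups far apart, with a difference of -1.25 ± 0.11 (SE, adjusted p = 3.87e-06), -1.31 ± 0.12 (adjusted p = 1.84e-05) without the mixed arrays and -1.02 within run 3. In a list of 6 tested genes that set ion gradients or serve as carrier subunits, Fxyd1, a regulator of the sodium pump, fell by 1.44 (adjusted p = 3.44e-06) and the pump subunit Atp1b3 rose by 0.65 (adjusted p = 0.0021) there, and 3 were not called. The share called was 50%, Bsg included, against 33.4% of all genes. Of 18 genes that use imported fuel, 6 fell and 2 rose in SJL/J left ventricle, 44.4% called against 33.4% of all genes tested. Fabp3, which binds fatty acids in the cytosol of heart muscle, read 4708, 4536, 4796, 5153 and 4527 in C57BL/6 and 2060.4, 1497, 1431, 1159 and 703.3 in SJL/J and fell by 1.88 (adjusted p = 4.30e-05). Like Slc2a4, it was highest in SJL/J on array 1 (Gapdh ratio 0.47) and lowest on array 5 (0.101). RNA quality and strain cannot be told apart for the left ventricle values of these listed genes. Crat, which moves acetyl groups to carnitine, was -0.87 ± 0.12 (SE, adjusted p = 0.000174) and Ldhb, the heart subunit of lactate dehydrogenase, -0.68 ± 0.15 (SE, adjusted p = 0.0048), and within run 3 they differed by -0.59 and -0.01. In quadriceps 0 of the 6 companions were called by limma (3 at an unadjusted p under 0.05). Of the 18 fuel genes 16.7% were called there, against 11.6% of all genes. Gamt (0.81, creatine synthesis) and Fabp4 (0.62, the fatty acid binding protein of fat cells) rose and Hk2 (-0.55, which traps glucose) fell. Of the 9 carriers that bear other names, Ucp1, the uncoupling protein of brown fat, rose in SJL/J quadriceps, where it read 219.6, 1248, 317.1, 115.2 and 34.8 against 5.7 to 21.1 in C57BL/6, by 4.29 ± 0.77 (SE, adjusted p = 0.00495); it is also 1 of the fat cell markers. In left ventricle the uncoupling protein Ucp3 was -0.87 ± 0.19 (SE, adjusted p = 0.00393), the phosphate exporter Xpr1 0.59 ± 0.17 (SE, adjusted p = 0.0148) and the outer membrane protein Mtch2 0.42 ± 0.14 (SE, adjusted p = 0.0329).

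Of the 14 mitochondrial and related carriers, 13 did not enter through left ventricle signal alone. In left ventricle, where 33.4% of all genes were called, 6 of these 13 were called, 2 higher and 4 lower in SJL/J. In quadriceps 1 of the 14 was called (7.14%), against 11.6% of all genes. Slc25a20 exchanges carnitine and acylcarnitine across the inner membrane and so admits long-chain fatty acids for oxidation. Left ventricle values were 1675, 1454, 1376, 1544 and 1206 in C57BL/6 and 909.0, 961.6, 937.5, 920.1 and 802.9 in SJL/J. Every SJL/J array was below every C57BL/6 array, by -0.67 ± 0.10 (SE, adjusted p = 0.000387), by -0.74 ± 0.10 (adjusted p = 0.00029) without the mixed arrays and by -0.41 within run 3. Quadriceps showed 561.3 to 878.4 in C57BL/6 and 422.3 to 906.3 in SJL/J, overlapping, and C57BL/6 left ventricle exceeded quadriceps by 1.03 ± 0.15 (SE, adjusted p = 0.000123). The ornithine carrier Slc25a15, which links mitochondrial and cytosolic steps of the urea cycle, was called in opposite directions in the tissues, in fits without run or RNA quality. It read 490.2, 460.2, 473.8, 401.2 and 470.2 in C57BL/6 and 403.6, 251.2, 283.1, 250.9 and 252.0 in SJL/J quadriceps. Array 1, mixed, was the only SJL/J quadriceps array inside the C57BL/6 range. There Slc25a15 was lower in SJL/J by -0.69 ± 0.16 (SE, adjusted p = 0.017), by -0.81 ± 0.14 (adjusted p = 0.0078) without the mixed arrays, by -0.62 within run 5, and by -0.93 ± 0.18 (adjusted p = 0.0219) without arrays above 1000 in Tnni3.

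In left ventricle Slc25a15 read 163.6, 295.8, 229.9, 195.7 and 239.1 in C57BL/6 and 298.8, 301.3, 389.7, 283.5 and 296.8 in SJL/J, overlapping through C57BL/6 array 2, with a difference of 0.50 ± 0.15 (SE, adjusted p = 0.0249). That call was lost with run as a block, at 0.32 (adjusted p = 0.809), and after adjustment for the Gapdh ratio, at 0.69 (adjusted p = 0.53). The quadriceps call was lost with run as a block, at -0.62 (adjusted p = 0.11), with the chip lot in its place, at -0.50 (adjusted p = 0.225), and with the Gapdh ratio, at -0.78 (adjusted p = 0.0641). The strain differences differed between the tissues by -1.20 ± 0.22 (SE, adjusted p = 0.00142), and by -1.35 ± 0.23 (adjusted p = 0.000796) without the mixed arrays; run as a block ended that call, at -0.94 (adjusted p = 0.239). Slc25a15 was also lower in left ventricle than in quadriceps in C57BL/6, by -1.05 ± 0.16 (SE, adjusted p = 0.000148), and not in SJL/J, at 0.27 ± 0.14 (adjusted p = 0.128) without the mixed arrays.

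The adenine nucleotide carriers export ATP from mitochondria. Slc25a5, the form of dividing and non-muscle cells, read 510.8, 515.2, 460.8, 548.8 and 544.4 in C57BL/6 and 234.2, 329.6, 484.8, 284.4 and 347.6 in SJL/J left ventricle; array 3 of SJL/J fell inside the C57BL/6 range, and the difference was -0.66 ± 0.16 (SE, adjusted p = 0.0077). A second probe set of Slc25a5 gave -0.91 in the same direction. Slc25a4, the muscle and heart form, was not called, at 0.15 ± 0.09 (SE, adjusted p = 0.193) in left ventricle and -0.06 ± 0.25 (SE, adjusted p = 0.896) in quadriceps, where C57BL/6 array 4 read 18838 against 7417 to 10859.9 on the other 4. Slc25a36, a carrier of pyrimidine nucleotides, was 797.7, 581.8, 762.8, 726.2 and 756.8 in C57BL/6 and 867.2, 1104, 1065, 1002 and 1073 in SJL/J left ventricle, without overlap, and rose by 0.50 ± 0.11 (SE, adjusted p = 0.00383). Slc25a17, a peroxisomal carrier, fell by 0.42 (adjusted p = 0.0324) and Slc25a44, a carrier of branched-chain amino acids, by 0.83 (adjusted p = 0.0106). Slc25a47 was above 100 in C57BL/6 left ventricle alone, at 102.9 to 129.0 there against 12.2 to 65.4 in SJL/J, so it has no test. The citrate carrier Slc25a1, which supplies acetyl units for fat synthesis, read 185.7, 122.6, 155.5, 201.4 and 147.5 in C57BL/6 and 276.7, 552.3, 305.1, 229.4 and 182.3 in SJL/J quadriceps. Its groups overlapped through the mixed array 5 alone; the difference of 0.84 ± 0.27 (SE, adjusted p = 0.059) became 1.08 ± 0.28 (adjusted p = 0.0391) without the mixed arrays, and a second probe set gave 0.88. Slc25a25, a carrier of ATP and magnesium with phosphate, read 2608.5 on C57BL/6 quadriceps array 4 and 309.3 to 764.5 on the other 4, and was lower in left ventricle by -1.62 ± 0.47 (SE, adjusted p = 0.0126).

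Of the 9 amino acid carriers, 2 were called in left ventricle by limma with all arrays (22.2%, against 33.4% of all genes). In quadriceps 0 were called (2 at an unadjusted p under 0.05), against 11.6% of all genes. Slc38a2, a sodium-coupled importer of small neutral amino acids, read 1334, 1044, 898.8, 1502 and 1145 in C57BL/6 and 1620.2, 1674, 1529.5, 1929 and 2112 in SJL/J left ventricle. All SJL/J arrays were above all C57BL/6 arrays, by 0.59 ± 0.14 (SE, adjusted p = 0.00654), and by 0.50 within run 3. With the Gapdh ratio as a covariate Slc38a2 differed by 0.04 (adjusted p = 0.982). In quadriceps it ran the other way without a call, at -0.24 ± 0.25 (SE, adjusted p = 0.57), and the difference of the strain differences, -0.83 ± 0.31 (SE, adjusted p = 0.0679), was not called with all arrays; without the mixed arrays it was -1.16 ± 0.32 (adjusted p = 0.0164), and with run as a block was -0.56 (adjusted p = 0.571). Slc3a2, the heavy chain that several amino acid exchangers need to reach the surface, rose in SJL/J left ventricle by 0.42 ± 0.13 (SE, adjusted p = 0.0245), with overlap between 437.2 to 578.0 and 545.7 to 846.2. Its partner Slc7a5, an importer of large neutral amino acids, read 177.2 to 232.6 and 183.2 to 209.3 in left ventricle and 155.1, 158.3, 132.9, 241.4 and 142.9 in C57BL/6 against 259.7, 245.7, 214.6, 262.9 and 194.0 in SJL/J quadriceps. C57BL/6 array 4 alone overlapped with SJL/J, the quadriceps difference was 0.53 ± 0.19 (SE, adjusted p = 0.0868), and it exceeded that in left ventricle by 0.61 ± 0.21 (SE, adjusted p = 0.0473), or 0.63 ± 0.24 (adjusted p = 0.0698) without the mixed arrays. Slc38a5, which carries glutamine and histidine, read 420.7, 391.4, 463.9, 483.1 and 479.2 in C57BL/6 and 315.5, 645.1, 645.0, 694.8 and 336.0 in SJL/J quadriceps. The 3 unmixed SJL/J arrays were above all C57BL/6 arrays and the mixed ones below all of them, so the difference was 0.16 ± 0.23 (SE, adjusted p = 0.694) with all arrays and 0.57 ± 0.14 (adjusted p = 0.0303) without the mixed ones.

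The tissue contrast split the amino acid carriers, with 3 lower and 2 higher in C57BL/6 left ventricle (55.6% called, against 49.7% of all genes). These include Slc7a2 and Slc3a1, which are members through quadriceps and left ventricle signal alone, respectively. Slc38a4, a carrier of neutral and cationic amino acids, read 519.9, 569.3, 469.5, 684.1 and 348.4 in C57BL/6 quadriceps and 193.8, 165.6, 134.9, 160.0 and 177.1 in left ventricle, a fall of 1.61 (adjusted p = 1.41e-05), and the SJL/J tissues differed by -1.46 ± 0.21 (adjusted p = 0.000281) without the mixed arrays. Slc38a5 fell by 1.04 (adjusted p = 0.00109). Slc7a2, a carrier of arginine and lysine, was lower by 1.26, a description because quadriceps means alone put it above 100. Slc38a10 rose by 1.43 (adjusted p = 8.43e-05), with values of 116.6 to 225.5 in quadriceps and 314.0 to 478.8 in left ventricle. In SJL/J left ventricle Slc38a10 was 512.3, 296.4, 355.5, 246.4 and 163.2; the mixed array was the highest, and the strain difference was -0.45 ± 0.25 (SE, adjusted p = 0.182) with all arrays and -0.74 ± 0.21 (adjusted p = 0.0206) without the mixed ones.

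The 4 carriers of the creatine, taurine and neurotransmitter family held 1 call between strains, in left ventricle (25%, against 33.4% of all genes). Slc6a6, the taurine importer, read 664.4, 655.9, 660.2, 518.7 and 710.8 in C57BL/6 and 1230.5, 985.1, 863.2, 798.6 and 818.1 in SJL/J left ventricle. The groups did not overlap, and Slc6a6 rose by 0.54 ± 0.13 (SE, adjusted p = 0.00753), by 0.47 ± 0.12 (adjusted p = 0.00853) without the mixed arrays and by 0.79 within run 3. The mean of its probe sets ended the call, at 0.11 (adjusted p = 0.739). Slc6a8, the creatine importer, read 854.3, 702.6, 806.2, 686.3 and 747.8 in C57BL/6 and 927.7, 820.5, 1061, 1065 and 1109 in SJL/J quadriceps. One SJL/J array lay inside the C57BL/6 range, and the difference of 0.39 ± 0.14 (SE, adjusted p = 0.0857) was not called. In left ventricle the creatine importer differed by 0.0 ± 0.13 (SE, adjusted p = 0.986) between strains, with 891.8 to 1086 in C57BL/6 and 688.9 to 1075 in SJL/J. Its tissue difference in C57BL/6 was 0.34 ± 0.11 (SE, adjusted p = 0.0265), and -0.35 (adjusted p = 0.0981) with the mean of its probe sets.

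Of the 12 metal carriers, most of them zinc transporters, 2 were called in left ventricle (16.7%, against 33.4% of all genes). Slc30a4, which moves zinc out of the cytosol into vesicles, read 161.9, 104.5, 161.6, 116.8 and 161.0 in C57BL/6 and 258.1, 185.4, 249.5, 235.1 and 307.1 in SJL/J left ventricle. All SJL/J arrays were above all C57BL/6 arrays, by 0.81 ± 0.17 (SE, adjusted p = 0.00317), by 0.85 ± 0.20 (adjusted p = 0.00704) without the mixed arrays and by 0.68 within run 3. Quadriceps signals overlapped, at 395.1 to 463.4 in C57BL/6 and 268.5 to 487.3 in SJL/J, and the strain differences of the tissues differed by -0.92 ± 0.24 (SE, adjusted p = 0.013). Run as a block ended the latter call, at -0.53 (adjusted p = 0.561). C57BL/6 left ventricle was below quadriceps for Slc30a4 by -1.60 ± 0.16 (SE, adjusted p = 5.07e-06). Slc39a7, which releases zinc from the endoplasmic reticulum, was lower in SJL/J left ventricle by -0.49 ± 0.17 (SE, adjusted p = 0.0402), with overlapping groups of 109.7 to 197.1 and 91.2 to 134.5. With the Gapdh ratio as a covariate Slc39a7 differed by -0.07 (adjusted p = 0.973). Slc39a1, a zinc importer, was -0.37 ± 0.15 (SE, adjusted p = 0.0833) with all arrays and -0.43 ± 0.15 (adjusted p = 0.0494) without the mixed ones, where it was called. Slc30a9 was not called between strains in either tissue with all arrays, and the difference of its strain differences was -0.58 ± 0.29 (SE, adjusted p = 0.174) with all arrays, -0.87 ± 0.30 (adjusted p = 0.0478) without the mixed arrays and -0.04 (adjusted p = 0.959) with run as a block. The iron importer Slc11a2 was uncalled in the strain comparisons, and a second probe set ran the opposite way in both tissues. In quadriceps 0 of 12 metal carriers were called by limma, against 11.6% of all genes, and 1 had an unadjusted p under 0.05.

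Among the 12 carriers of vitamins, choline, phosphate and organic ions, Slc23a2, which imports ascorbate, rose in SJL/J quadriceps. It read 170.6, 176.1, 141.2, 118.1 and 148.5 in C57BL/6 and 233.5, 207.8, 237.9, 233.4 and 214.7 in SJL/J quadriceps, without overlap. The difference was 0.59 ± 0.16 (SE, adjusted p = 0.0299), 0.60 ± 0.19 (adjusted p = 0.0754) without the mixed arrays, where the call was lost, and 0.94 within run 5; median centring ended the call, at 0.44 (adjusted p = 0.103). In left ventricle Slc23a2 was 235.1 to 277.1 in C57BL/6 and 176.6 to 261.7 in SJL/J, and the tissues differed in strain difference by 0.71 ± 0.19 (SE, adjusted p = 0.0135), or 0.64 ± 0.20 (adjusted p = 0.0284) without the mixed arrays. Slc44a2, a choline transporter-like protein, read 180.4, 172.6, 154.7, 193.7 and 157.0 in C57BL/6 and 125.0, 118.1, 90.1, 91.1 and 76.9 in SJL/J left ventricle. No array overlapped, and Slc44a2 fell by 0.80 (adjusted p = 0.00211), with -0.33 within run 3. With the Gapdh ratio as a covariate Slc44a2 differed by -0.21 (adjusted p = 0.869). In SJL/J quadriceps it was 234.7, 567.1, 576.8, 545.8 and 147.2, lowest on the mixed arrays 1 and 5. Its relative Slc44a1 was higher in left ventricle than in quadriceps by 1.67 ± 0.41 (SE) in C57BL/6 and by 3.36 ± 0.45 in SJL/J without the mixed arrays. Left ventricle means alone put Slc44a1 above 100, so these tissue differences are a description with no test. Slc5a6, which imports biotin and pantothenate, was above 100 in C57BL/6 left ventricle alone, at 113.5 to 184.0 against 41.8 to 91.0 in SJL/J left ventricle, and has no test there. Slc22a17, a binding protein for lipocalin 2, was above 100 in SJL/J quadriceps alone, at 61.5 to 177.2 against 28.8 to 71.1 in C57BL/6, and is likewise a description.

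The remaining members carry nucleosides and nucleotide sugars or anchor other proteins. Slc35a1, which brings activated sialic acid into the Golgi, read 107.7, 97.3, 90.7, 99.8 and 83.5 in C57BL/6 and 135.0, 191.4, 151.3, 160.5 and 171.1 in SJL/J left ventricle. The SJL/J arrays were all higher, by 0.75 ± 0.14 (SE, adjusted p = 0.00129), by 0.77 ± 0.14 (adjusted p = 0.00212) without the mixed arrays and by 0.69 within run 3. Slc29a1, a passive carrier of nucleosides, read 170.0, 118.8, 128.8, 186.1 and 67.5 in C57BL/6 and 292.0, 265.7, 167.6, 206.5 and 246.9 in SJL/J quadriceps, with a difference of 0.87 ± 0.27 (SE, adjusted p = 0.0545). This strain difference exceeded that in left ventricle by 1.21 ± 0.35 (SE, adjusted p = 0.0215), and by 1.15 ± 0.41 (adjusted p = 0.0581) without the mixed arrays. A second probe set of Slc29a1 gave 0.64 in left ventricle where the brightest gave -0.35, and -0.04 against 1.39 between the C57BL/6 tissues, so the values of this gene are uncertain. Slc9a3r1, a scaffold that ties carriers to the cytoskeleton, read 214.5, 197.0, 214.4, 184.5 and 199.5 in C57BL/6 and 143.5, 144.3, 139.8, 129.3 and 169.1 in SJL/J left ventricle. It fell there by 0.48 (adjusted p = 0.00658) without overlap, and the strain differences of the tissues differed by 1.03 ± 0.22 (SE, adjusted p = 0.00351). Run as a block ended the latter call, at 0.82 (adjusted p = 0.311).

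The other 20 members, among them the oxoglutarate carrier Slc25a11, the phosphate importer Slc20a1, the copper importer Slc31a1 and the folate carrier Slc19a1, were called in neither strain comparison. Their strain differences ran from -0.32 for Slc25a28 to 0.49 for Slc20a1 in quadriceps and from -0.34 for Slc25a11 to 0.34 for Slc20a1 in left ventricle. Slc25a11, Slc23a3, Slc31a1 and Slc3a1 were called between the C57BL/6 tissues. The largest difference, 0.83 ± 0.21 (SE), was that of Slc3a1, the heavy chain of a carrier of basic amino acids. Left ventricle means alone put Slc3a1 above 100, so its difference is a description with no test. Without the mixed arrays the calls of Slc23a3 (0.52 ± 0.23 (adjusted p = 0.0873)) and Slc31a1 (0.42 ± 0.16 (adjusted p = 0.0523)) were lost, and that of Slc25a11 was lost with chip lot as a block, at 0.24 (adjusted p = 0.452), and after median centring, at 0.44 (adjusted p = 0.0522).

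The difference between heart and muscle was then set side by side in the 2 strains, which share no arrays. Of the 32 members called in C57BL/6, 3 (Slc27a1, Slc5a6 and Slc9a3r2) are members through C57BL/6 left ventricle or quadriceps signal alone. Slc44a1 and Slc3a1 are members through the left ventricle signal of the strains alone, and Slc7a2 through their quadriceps signal alone. None of these calls is independent of the rule. Of all 32, 27 had the same direction in SJL/J without the mixed arrays, and 20 of these were called there. These are 84.4% and 62.5% of the 32, against 82.1% and 58.9% of the 2720 genes called in C57BL/6 among all genes tested. Slc12a7, Slc4a3, Slc8a1 and Slc16a1 were higher in left ventricle in both strains, as was Slc44a1, given as a description. Slc37a4, Slc12a2, Slc38a4, Slc44a2 and Slc30a4 were lower in both. The 5 exceptions were Slc6a8, Slc25a15, Slc9a3r1, Slc4a2 and Slc27a1, the last with 1.16 ± 0.29 (SE) in C57BL/6 and -2.10 ± 0.32 in SJL/J without the mixed arrays. The Slc27a1 difference in C57BL/6 is a description, because its left ventricle mean there made it a member. In SJL/J without the mixed arrays 21 further members were called. Among members that differed in both strains, Slc4a3 showed a smaller difference in SJL/J, 2.01 against 3.87, the same contrast as the interaction tested above.

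**Figure D5:**
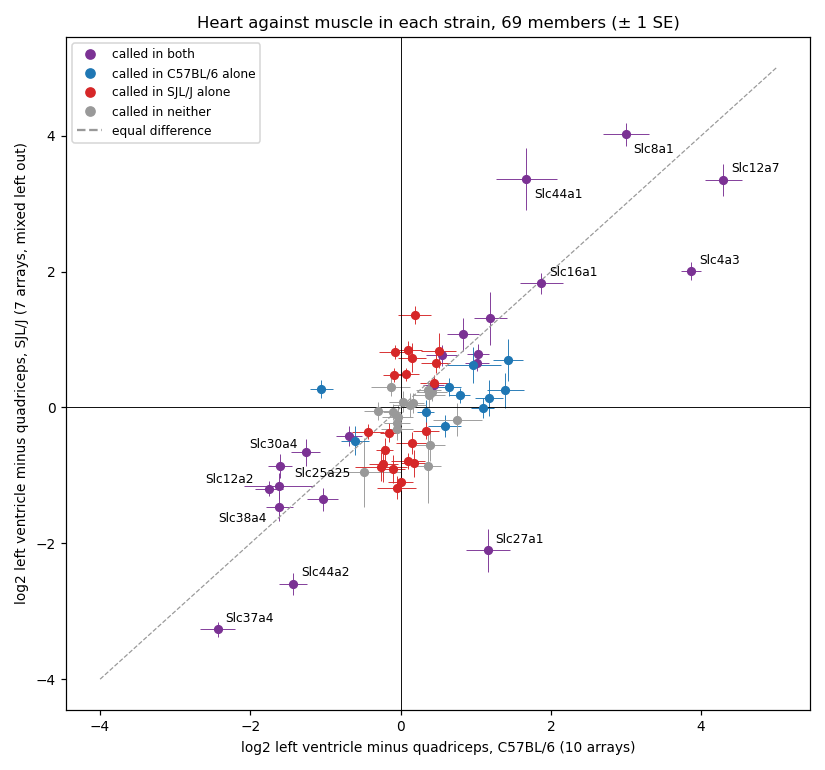
Log2 difference of left ventricle minus quadriceps for the 69 members, in C57BL/6 on the horizontal axis and in SJL/J without the mixed arrays on the vertical axis, with bars of 1 SE and colours for the strains in which a member was called. Slc27a1 lies at 1.16 and -2.10, on opposite sides of 0, and Slc4a3 lies below the dashed line of equal difference.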

How the data were processed

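Each of the 20 samples was 1 Affymetrix MG_U74Av2 array. The authors deposited 1 signal intensity per probe set and array, scaled to a trimmed mean of 199.4 to 199.9 on every array, per the values of the table; the sources used here do not name the summarisation software. Chip lot and wash protocol come from the deposited array run records. The run was inferred from the hybridisation times in these records, with arrays close together in time taken as 1 run. Signals below the floor of 3.1 (the 5th percentile) were raised to it and log2 was taken without further normalization. Each gene was represented by its probe set with the highest mean signal; genes with no group mean above 68.8 (the median signal) were left out, and 5473 genes were tested. Symbols came from the platform annotation: 10833 probe sets had 1 symbol, 396 several and 1193 none. Differences were tested with limma 3.58.1 (R 4.3.3; eBayes with trend), two-sided, on the 10 arrays of the groups compared (all 20 for the interaction), with Benjamini-Hochberg adjustment over all genes tested; Python 3.11.15, pandas 2.3.3 and matplotlib 3.10.9 were used for tables and plots. On simulated data with 200 changed genes among 5473, 74.6% of changes of size 1 (log2) were recovered in the quadriceps comparison and 76.1% in left ventricle, and 11.9% and 8.96% of changes of size 0.5. The simulated noise of a gene was its SD averaged over the 4 groups, the same in every comparison, with no run or mixed array effect. Fewer genes were changed than were called in the data. These shares therefore do not describe the quadriceps or left ventricle comparison on its own noise. The number of arrays, 5 per group, limits the precision. Members and gene lists were chosen with earlier results of these data known. Genes were named when called in a strain comparison or the interaction, with or without the mixed arrays; when among the 8 largest tissue differences of either direction in C57BL/6; when among the 2 brightest of a substrate class; when next to the threshold; and, from the lists, when called (at most 4 a list). Slc2a8, Slc50a1, Slc4a2, Slc9a8 and others outside this rule were named after their values were seen. Replicate numbers were not taken as pairs. Deviations of arrays with the same number correlated at -0.059 to 0.0472 between the C57BL/6 tissues and at -0.211 to 0.0092 between the SJL/J tissues. Between the strains in quadriceps they correlated at -0.25 to 0.127. These values cannot show whether both tissues of a number came from 1 mouse, and the tissue tests were unpaired. Alternatives covered the floor, filter, scaling, probe set choice, mixed arrays, run, chip lot, Gapdh ratio, array weights, variance trend, replicate number, single replicates and member rule.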

Additional observations from a re-analysis of the deposited data

Results flagged for a closer look

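Single arrays stood apart from the other 4 of their group in 14 of 176 groups of 5 arrays tested over 44 named members (gap over range above 0.71); chance marks about 1 in 20 groups. On SJL/J left ventricle array 1, a mixed array, Slc4a3 (2444.8), Slc37a4 (482.1) and Slc27a1 (130.9) were high and Slc23a2 (176.6) was low. Slc25a15 was high on SJL/J quadriceps array 1 (403.6), also mixed, and on SJL/J left ventricle array 3 (389.7). C57BL/6 quadriceps array 4, which stood apart over all genes, was low for Slc25a36 (434.0) and high for Slc7a2 (319.5). SJL/J left ventricle array 5, which had the lowest Gapdh ratio, was low for Slc5a6 (41.8) and Slc6a8 (688.9). In C57BL/6 left ventricle, Slc6a6 was low on array 4 (518.7), Slc39a1 was low (351.7) and Slc30a9 high (519.2) on array 1, and Slc23a3 was low on array 2 (317.6).

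With all arrays, the interaction test called 9 members apart from Slc27a1. In quadriceps minus left ventricle it was 2.43 for Slc4a3, 2.02 for Slc12a7, 1.21 for Slc29a1, 1.05 for Slc25a5, 1.03 for Slc9a3r1, 0.71 for Slc23a2 and 0.61 for Slc7a5 on the log2 scale, and -1.2 for Slc25a15 and -0.92 for Slc30a4. Without the mixed arrays Slc12a7 was at 0.93 (limma adjusted p = 0.114) and Slc25a5 at 1.015 (adjusted p = 0.0506). Both calls were lost there, as were those of Slc29a1 and Slc7a5. For Slc27a1, which is a member through its C57BL/6 left ventricle mean alone, the value of 2.52 is a description with no test.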

How the results depend on the processing

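The counts of members called in the strain comparisons depended on the settings. In quadriceps 5 members were called, against 3 with no filter on dim probe sets, 1 with the Gapdh ratio as a covariate and 15 with array weights. After quantile normalization 3 were called there, and 599 of all genes against 635. Counts with run as a block are left out, because those fits rest on 1 array in at least 1 group. In left ventricle 22 became 0 with the Gapdh covariate. With that covariate the ventricular difference shrank for some genes, to 0.04 for Slc38a2, -0.21 for Slc44a2, -0.07 for Slc39a7 and -0.11 for Slc27a1. For others it grew, to 1.1 for Slc12a2 and 1.08 for Slc6a6. The interaction count of 10 became 6 with the mean of all probe sets and 23 with array weights. It was also 23 without the mixed arrays and quadriceps arrays with Tnni3 above 1000, a setting chosen after seeing the data. Between the SJL/J tissues 26 became 42 without the mixed arrays, where calls over all genes went from 2037 to 2937. The count there was 4 with the Gapdh covariate and 47 with array weights. Member counts are not set beside the share of all genes for every setting, so they do not single out the carriers. Leaving out 1 array gave 2 to 9 members called in quadriceps, and 411 to 972 of all genes. The 9 came without C57BL/6 array 4 and the 2 without SJL/J array 3, C57BL/6 array 3 or C57BL/6 array 5. Left ventricle had 19 to 25 (1464 to 2107 of all genes). The interaction had 7 to 20 (675 to 1347), the 20 without C57BL/6 quadriceps array 4. There were 28 to 39 (2445 to 3148) between the C57BL/6 tissues and 18 to 34 (1535 to 2373) between the SJL/J tissues. With the replicate number as a block the counts were 4, 18, 10, 31 and 22 in the same order. Directions turned with the Gapdh covariate in left ventricle for Slc8a1 (-0.02), Slc2a4 (0.37), Slc3a2 (-0.31), Slc5a6 (0.39) and Slc25a47 (0.56); between the C57BL/6 tissues for Slc6a8 with the mean of its probe sets (-0.35) and Slc23a3 with chip lot as a block (-0.06); and between the SJL/J tissues for Slc30a4 with the mean of its probe sets (0.04) and, with run as a block, for Slc39a1 (0.16), Slc30a9 (-0.04), Slc38a5 (0.03) and Slc44a1 (-0.42). For run as a block between the SJL/J tissues, the difference is that within run 3 alone. It sets mixed left ventricle array 1 against mixed quadriceps arrays 1 and 5, which carried heart transcripts. The cause of the turns was not tested. Over all alternatives for the named genes called (27 of the 32 members called between the C57BL/6 tissues, 22 of 26 between the SJL/J tissues and all called in the other comparisons), 1677 values kept the call, 296 lost it and 12 turned direction. Median centring moved the median gene from 0.09 to -0.06 in quadriceps, 0.08 to -0.07 in the interaction and 0.14 to -0.07 between the C57BL/6 tissues, and the share of higher calls from 54% to 32.2%, 57.6% to 37% and 60.7% to 44.2%; the 21 higher and 11 lower members between the C57BL/6 tissues became 15 and 16. Run as a block could not be fitted between the C57BL/6 tissues, and chip lot does not vary in left ventricle or between the SJL/J tissues.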
